A study of Mus musculus with 12 samples.

Results

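The brush border of the kidney's proximal tubule carries peptidases and the proteins that hold its microvilli together, and 9 such genes were examined here. They are the peptidase genes Ggt1, Anpep, Dpep1, Mep1a, Mep1b and Dpp4, and the scaffold genes Vil1, Pdzk1 and Slc9a3r1. All probes to which the platform annotation gives 1 of these symbols were taken, whatever their values. This gave 13 of the 45281 probes on the array, for 8 of the 9 genes (of 19057 genes with a probe of 1 symbol), and 12 of these 13 were among the 23983 probes tested. No probe is listed under the symbol Ggt1, so that gene was not analysed here.

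The samples are kidneys of male C57BL/6J mice, an inbred laboratory strain, at postnatal day 28, with 6 labelled control and 6 labelled ethanol. The study asked which genes differ in the kidneys of offspring exposed to ethanol before birth. In the ethanol group the dams had free access to drink with 10% (v/v) ethanol between fertilization and gestation day 8.5, and that protocol text is attached to the control samples as well. The labels give neither dam, litter nor batch, and they do not say that the samples are separate animals, so a p-value here covers no more than the variation among the 12 samples.

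The brush border is the carpet of microvilli through which proximal tubule cells take back filtered peptides, amino acids, glucose and phosphate. Its peptidases face the urine and cut filtered peptides and glutathione down to amino acids that carriers can take up. Inside each microvillus, villin bundles the actin core, and the PDZ-domain proteins encoded by Slc9a3r1 (NHERF1) and Pdzk1 (NHERF3) hold transporters at the membrane and, through ezrin, near the actin. In bulk tissue, fewer cells of a type and less RNA per cell cannot be told apart.

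On each array 50.5% to 56.9% of all probes lay above background, and the arrays correlated at 0.952 to 0.992 over the tested probes. The first principal component of the tested probes held 32.6% of their variance. Control 4 lay at one end of it, at -62.5, and ethanol 2 and ethanol 3 at the other, at 45.7 and 37.5, so results that changed with control 4 are given with and without it. The tissue label was checked with 10 proximal tubule markers, all tested, whose mean log2 level was 11.8 to 12.1 in controls and 11.8 to 12.1 in ethanol kidneys. Of 4 markers of the intestine, the other large brush border tissue (Lct, Sis, Fabp2 and Cdx2), 0 passed the filter on low values. The 4 tested T lymphocyte markers were lower in the ethanol group, with a median log2 difference of -0.57 and mean levels of 6.40 to 7.08 against 6.85 to 7.91 in controls. The 5 macrophage markers were lower too, with a median of -0.29 and mean levels of 7.92 to 8.29 against 8.13 to 8.45. None of these marker genes passed adjustment, and their part in the member values was not tested.

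No member passed the test between ethanol and control kidneys after adjustment. Of the 12 tested member probes, 0 had an adjusted p under 0.05 in limma's moderated test, against 0% of all tested probes. At an unadjusted p under 0.05 the count was again 0 of 12, against 12.2% of all tested probes. The ranges of the 2 groups overlapped at every member probe, while 0.484% of all tested probes had groups that did not overlap. Below 0 were 8 of the 12 log2 differences and above 0 were 4, while 48.2% of all tested probes lay below 0. Taking the brightest probe of each gene, the median log2 difference of the 8 genes was -0.04, against 0.02 over all 12618 tested genes.

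**Figure D1:**
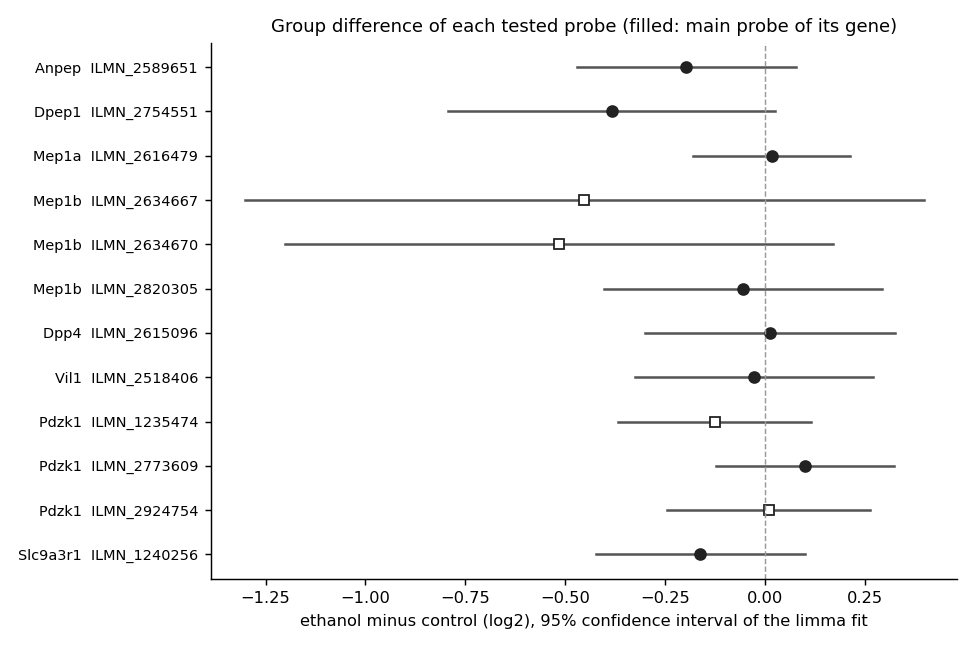
The ethanol minus control difference in log2 units (x axis) of each tested member probe (y axis), with its 95% confidence interval from limma; filled points are the brightest probe of a gene. All 12 intervals cross 0, and those of the 2 dimmer Mep1b probes are the widest.

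Among the peptidases, Dpep1 came nearest to a difference. Dpep1 encodes the membrane dipeptidase, which splits the cysteinylglycine left when glutathione loses its glutamate. Its probe ILMN_2754551 read 10.08, 10.68 and 10.90 (lowest, median and highest log2 level) in the 6 controls and 9.74, 10.20 and 10.68 in the 6 ethanol kidneys. The groups overlapped: ethanol 2, 3 and 5 were the lowest of the 12 kidneys, control 2 stood just above them, and ethanol 1, 4 and 6 lay within the control range. The group means were 10.61 ± 0.33 in controls and 10.22 ± 0.39 in ethanol kidneys (SD, n = 6 each). The log2 difference was -0.38 ± 0.19 (SE), a fold of 0.766 with a 95% confidence interval of 0.577 to 1.02, and it did not pass the test (limma, adjusted p = 0.430). When 1 kidney at a time was left out, the log2 difference ran from -0.49 to -0.29.

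Anpep encodes aminopeptidase N, which removes single residues from the amino end of peptides. Its log2 level was 10.46, 10.66 and 11.00 (lowest, median and highest) in controls and 10.27, 10.53 and 10.81 in ethanol kidneys. Controls 4 and 6 were the highest of the 12 kidneys and ethanol 5 and 3 the lowest, with the groups overlapping between. The log2 difference was -0.20 ± 0.13 (SE; 95% confidence interval -0.47 to 0.08; limma, adjusted p = 0.544).

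Mep1a and Mep1b encode the alpha and beta chains of meprin, a zinc metalloprotease that in rodents is one of the most abundant brush border proteins. The Mep1a probe held nearly the same level in every kidney. It read 14.07, 14.20 and 14.33 (lowest, median and highest log2 level) in controls and 14.13, 14.24 and 14.28 in ethanol kidneys. Its SD over the 12 kidneys was 0.091, and only 0.867% of tested probes, whatever their level, had a smaller one. The SD was not compared with that of probes of like level. The ethanol minus control difference was 0.02 ± 0.09 (SE) on the log2 scale, with a 95% confidence interval of -0.18 to 0.21 (limma, adjusted p = 0.961). Its sign turned under scalings other than quantile normalization.

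Mep1b had 3 tested probes that gave different pictures of the same gene. The probe ILMN_2820305 read 11.17, 11.63 and 11.87 (lowest, median and highest log2 level) in controls and 11.14, 11.46 and 12.04 in ethanol kidneys. Ethanol 6 was the highest of the 12 on this probe and ethanol 4 the lowest, so the ethanol group enclosed the controls. The difference was -0.06 ± 0.16 (SE; log2; adjusted p = 0.915).

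The other 2 Mep1b probes varied far more between kidneys. The probe ILMN_2634667 ran from 7.05 to 8.67 in controls, with a median of 8.29, and from 6.50 to 8.96 in ethanol kidneys, with a median of 7.67. The probe ILMN_2634670 ran from 7.18 to 8.54 in controls, with a median of 8.40, and from 6.68 to 8.72 in ethanol kidneys, with a median of 7.79. On both, ethanol 2 and 3 and control 2 were the 3 lowest kidneys, and ethanol 6 was the highest. Their SDs over the 12 kidneys exceeded those of 99.0% and 97.5% of tested probes, again whatever the level of those probes. The log2 differences were -0.45 ± 0.40 and -0.52 ± 0.32 (SE), with 95% confidence intervals of -1.30 to 0.40 and -1.20 to 0.17 (limma, adjusted p = 0.661 and 0.524). Single kidneys moved both: the first was -0.71 without ethanol 6 and -0.22 without ethanol 3, and the second was -0.73 without ethanol 6 and -0.32 without ethanol 2. These 2 probes followed each other over the 12 kidneys (Pearson r = 0.97), but correlated less well with ILMN_2820305 (r = 0.66 and 0.63). Over the 12 kidneys they correlated more strongly with Dpep1 (r = 0.90 and 0.89) than with the third probe of their own gene. These r values are descriptions, given without a test.

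Ethanol 6, the highest kidney on all 3 Mep1b probes, also had the highest mean of the 2 tested liver markers, Apoa1 and Cyp2e1. That mean was 12.2 in ethanol 6, against 8.19 to 10.9 in the controls, while the third marker, Alb, did not pass the filter. Male mouse kidney expresses Cyp2e1 itself. Among the 6 ethanol kidneys Cyp2e1 varied little (12.42 ± 0.29, mean log2 level and SD), whereas Apoa1 varied widely (6.57 ± 2.48). The part of this marker level in the Mep1b values was not tested.

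**Figure D2:**
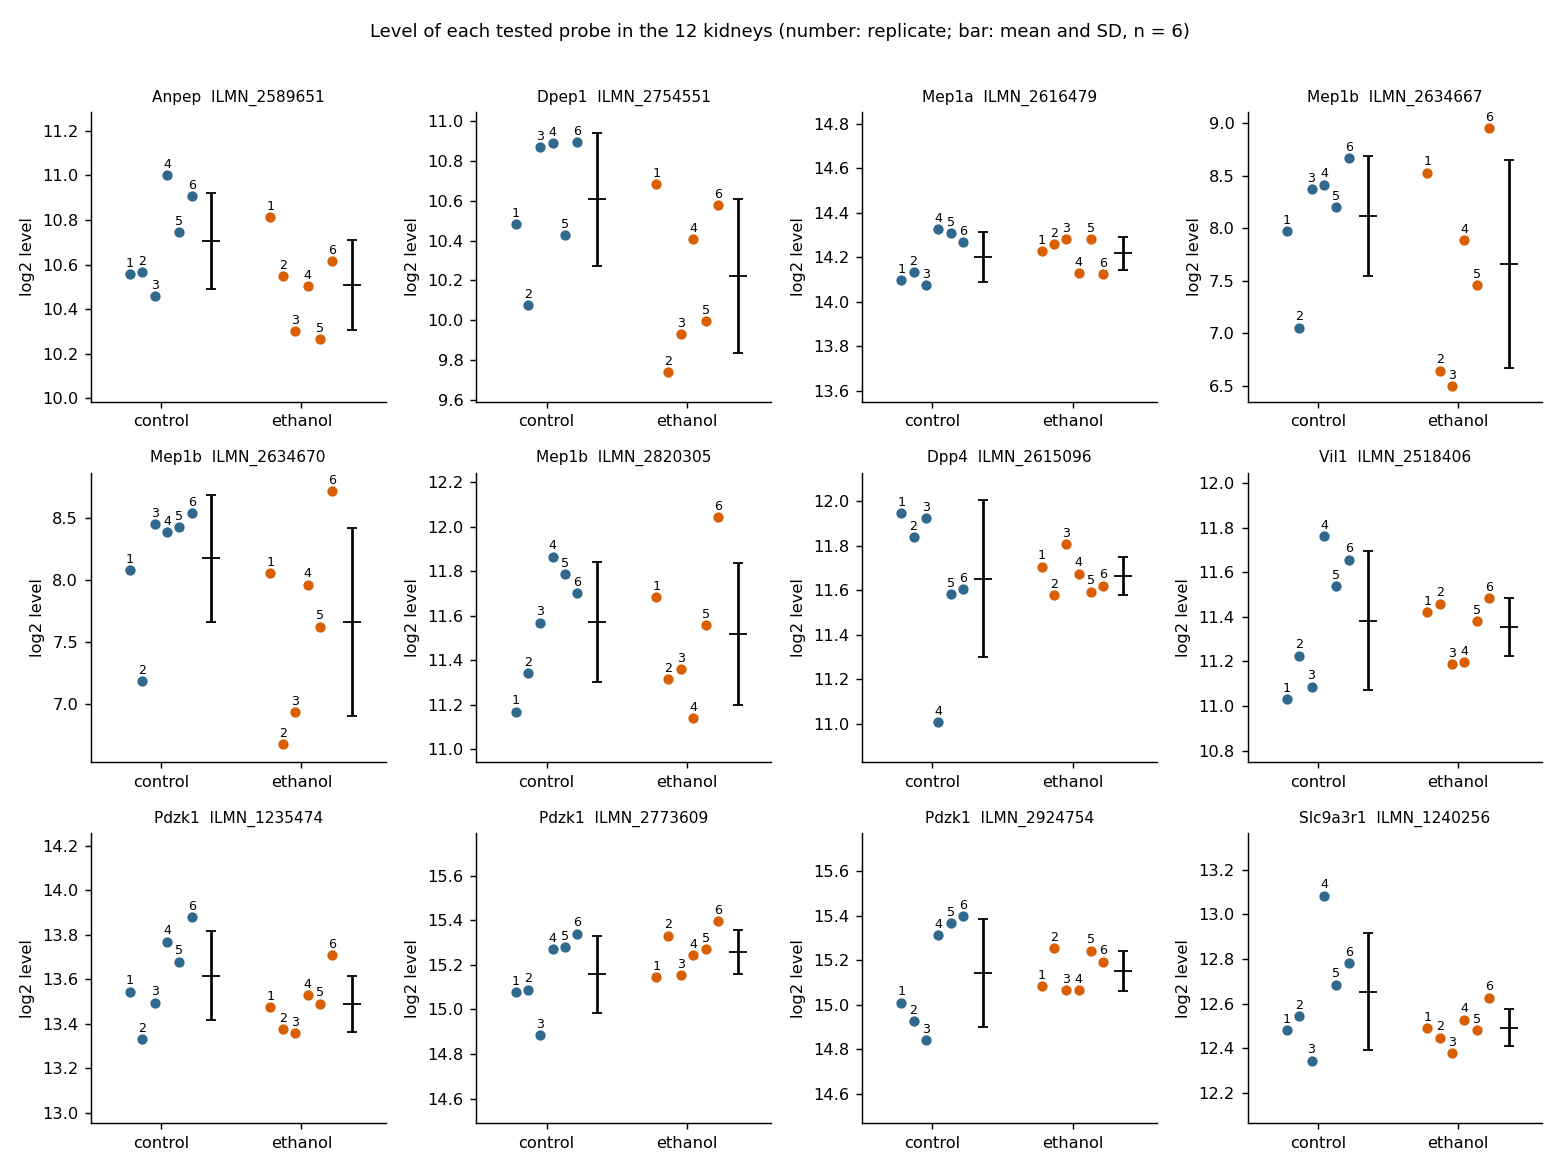
The log2 level (y axis) of each of the 12 tested member probes in the 12 kidneys, with control and ethanol side by side; each point is a kidney numbered by replicate, and bars give the mean and SD (n = 6). The groups overlap in every panel, and for Dpp4 and Slc9a3r1 the 6 ethanol kidneys lie close together while control 4 stands away from the other controls.

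Dpp4 encodes dipeptidyl peptidase 4, which removes pairs of residues ending in proline or alanine and is also the lymphocyte antigen CD26. Its probe ILMN_2615096 read 11.01, 11.72 and 11.95 (lowest, median and highest log2 level) in controls and 11.58, 11.65 and 11.81 in ethanol kidneys. Control 4 was the lowest kidney by far, controls 1, 2 and 3 were the 3 highest, and the ethanol kidneys lay between. The difference was 0.01 ± 0.15 (SE; log2; 95% confidence interval -0.30 to 0.33; adjusted p = 0.982). Without control 4 it was -0.12 (limma, adjusted p = 0.668), and it also fell just below 0 without control 5 or ethanol 3 (-0.0017 and -0.016). The second Dpp4 probe, ILMN_1239782, exceeded background in 2 control and 2 ethanol kidneys only and was not tested. Its deposited intensity ran from -6.73 to 42.1, against 1773 to 3946 for the first. T lymphocyte markers were lower in the ethanol group, as given above; their part in the Dpp4 values was not tested.

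The scaffold genes were measured well above background in all 12 kidneys. Vil1, which encodes villin, read 11.03, 11.38 and 11.76 (lowest, median and highest log2 level) in controls and 11.19, 11.40 and 11.48 in ethanol kidneys. Controls 4, 5 and 6 were the 3 highest kidneys and controls 1 and 3 the 2 lowest, with all ethanol kidneys inside the control range. The log2 difference was -0.03 ± 0.14 (SE; 95% confidence interval -0.33 to 0.27; limma, adjusted p = 0.953), and without control 4 it was 0.05.

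Slc9a3r1, named for its binding to the sodium-proton exchanger encoded by Slc9a3, read 12.34, 12.61 and 13.09 in controls and 12.38, 12.49 and 12.63 in ethanol kidneys (lowest, median and highest log2 level). Controls 4, 5 and 6 were again the 3 highest and control 3 the lowest. The log2 difference was -0.16 ± 0.12 (SE; 95% confidence interval -0.42 to 0.10; limma, adjusted p = 0.604). Without control 4 it was -0.08.

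Pdzk1, whose protein binds the phosphate carrier encoded by Slc34a1 among others, had 3 tested probes. The probe ILMN_2773609 read 14.88, 15.18 and 15.34 (lowest, median and highest log2 level) in controls and 15.15, 15.26 and 15.40 in ethanol kidneys. Control 3 was the lowest kidney and ethanol 6 the highest. The log2 difference was 0.10 ± 0.10 (SE; adjusted p = 0.715) on this probe, 0.01 ± 0.12 on ILMN_2924754 (adjusted p = 0.984) and -0.13 ± 0.11 on ILMN_1235474 (adjusted p = 0.666). The difference of 0.10 was 0.029 with median scaling, 0.024 with the deposited values and 0.046 without control 3. The -0.13 was -0.074 without control 6. Mean log2 levels in controls and ethanol kidneys were 15.14 and 15.15 on ILMN_2924754, and 13.62 and 13.49 on the dimmer ILMN_1235474. The 2 brighter probes tracked each other over the 12 kidneys (r = 0.85), whereas ILMN_1235474 correlated with ILMN_2773609 at 0.48 and with ILMN_2924754 at 0.66. The sign of the group difference thus differed between probes of the same gene.

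Within the control group, kidneys 4, 5 and 6 all lay above kidneys 1, 2 and 3 at 8 of the 12 tested member probes, against 9.75% of all tested probes. These were the probes of Anpep, Mep1a, Vil1, Slc9a3r1 and Pdzk1 (all 3) and the brightest Mep1b probe. At the Dpp4 probe the order was the opposite, as at 6.93% of all tested probes. The labels name no difference between these kidneys, the division was noticed in the values, and no test was made on it. The SD was smaller among ethanol than among control kidneys at 8 of the 12 member probes, against 57.5% of all tested probes, and at 7 of 12 without control 4, against 43.0%.

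The 8 genes were then compared over the 12 kidneys by the correlation of their brightest probes, which gave 28 pairs. Pearson's r passed an adjusted p of 0.05 in 10 pairs (permutation test, two-sided, Benjamini-Hochberg over the 28 pairs), of which 7 were positive and 3 negative, and Spearman's rho in 8. Above 0.7 lay 6 of the 28 r values, against 3.41% of all pairs of tested genes, and below -0.7 lay 2, against 2.67%. All genes of a kidney share its array, so these r values hold whatever varied between arrays. Vil1 took part in 6 of the 10 pairs. Without control 4 only 3 pairs passed, without control 1, 5 or 6 it was 5 and without ethanol 4 it was 6. With group means removed, or with the probes of a gene averaged, 12 passed, and 3 passed when the deposited intensities were used without correction or scaling. With group means removed, the resampling still moved values freely between the groups. The p-values of that setting are therefore somewhat too small, and its count is not strictly comparable with the 10.

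Dpp4 had an r below 0 with each of the other 7 genes, and 3 of these passed. The strongest was that with Vil1 (r = -0.86, adjusted permutation p = 0.002; rho = -0.85, adjusted p = 0.016). Without the 2 kidneys farthest from the median of Dpp4, controls 4 and 1, r was -0.83, and without control 4 alone it was -0.87 (adjusted p = 0.006). With the deposited values, r was -0.59 and no longer passed (adjusted p = 0.075). Among all pairs of tested genes, 0.299% had an r below -0.85. Dpp4 against Pdzk1 gave r = -0.60 (adjusted p = 0.116; rho = -0.78, adjusted p = 0.029) over all 12 kidneys and -0.89 without control 4 (adjusted p = 0.006). Dpp4 against Slc9a3r1 moved the other way, from r = -0.85 (adjusted p = 0.015; rho = -0.48, adjusted p = 0.199) to -0.56 without control 4 (adjusted p = 0.167), so that relation rests on that kidney. Dpp4 against Mep1a gave r = -0.68 (adjusted p = 0.026; rho = -0.74, adjusted p = 0.035) and -0.67 without control 4 (adjusted p = 0.102). With the deposited values that r was -0.04 (adjusted permutation p = 0.904), and the r of Dpp4 with Slc9a3r1 was -0.71 (adjusted permutation p = 0.072). Neither relation passed in that setting.

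**Figure D3:**
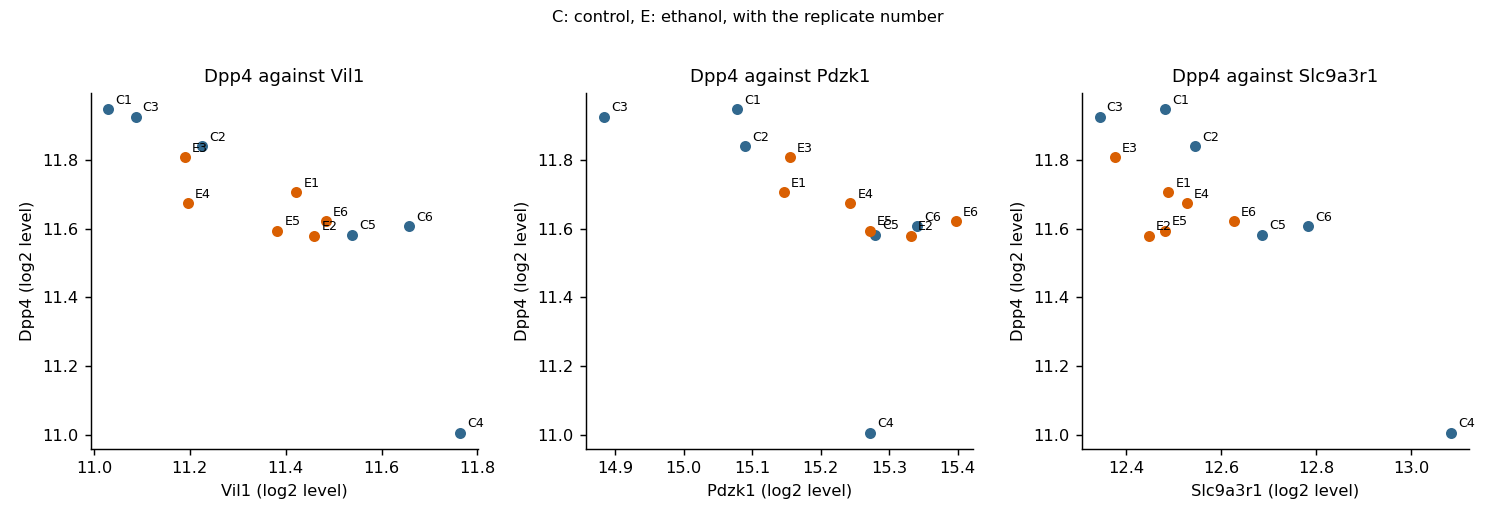
The log2 level of Dpp4 (y axes) against that of Vil1, Pdzk1 and Slc9a3r1 (x axes), with 1 point for each kidney (C, control; E, ethanol; with the replicate number). Dpp4 falls as Vil1 rises across both groups (r = -0.86), while in the Slc9a3r1 panel control 4 lies far from the other kidneys.

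Vil1 rose and fell with the other scaffold genes. With Slc9a3r1 it gave r = 0.81 (adjusted permutation p = 0.004; rho = 0.77, adjusted p = 0.029), 0.80 without the 2 kidneys farthest from the median of Vil1, and 0.74 without control 4 (adjusted p = 0.061). With Pdzk1 it gave r = 0.73 (adjusted p = 0.028; rho = 0.79, adjusted p = 0.028), 0.78 without the farthest pair of kidneys and 0.79 without control 4 (adjusted p = 0.030). Vil1 with Pdzk1 no longer passed without control 1, 5 or 6 (r = 0.71, 0.72 and 0.70; adjusted p = 0.060, 0.053 and 0.056). Pdzk1 and Slc9a3r1 themselves gave r = 0.50, which did not pass (adjusted p = 0.144; rho = 0.51, adjusted p = 0.171). That pair passed with group means removed (r = 0.77, adjusted permutation p = 0.014, with the limit of that setting given above) and with the probes of a gene averaged (r = 0.74, adjusted p = 0.014).

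Of the peptidases other than Dpp4, 3 correlated with Vil1. The r was 0.72 for Anpep (adjusted permutation p = 0.031; rho = 0.73, adjusted p = 0.035), 0.73 for Mep1a (adjusted p = 0.031; rho = 0.63, adjusted p = 0.085) and 0.72 for Mep1b (adjusted p = 0.031; rho = 0.72, adjusted p = 0.039). Leaving out the 2 kidneys farthest from the median of the peptidase gave 0.43, 0.55 and 0.77, and without control 4 none of the 3 passed (adjusted p = 0.133, 0.102 and 0.102). The relation of Mep1b with Vil1 was that of its brightest probe: the other 2 Mep1b probes gave r = 0.36 and 0.30 with Vil1, and their average with the brightest gave 0.42 (adjusted permutation p = 0.236). Anpep also correlated with Slc9a3r1 (r = 0.81, adjusted p = 0.006; rho = 0.84, adjusted p = 0.016) and with Dpep1 (r = 0.67, adjusted p = 0.049; rho = 0.68, adjusted p = 0.058). Without the farthest kidneys, controls 4 and 6, these fell to 0.58 and 0.47, so both rest in part on those 2 kidneys. Without control 4 alone neither passed (r = 0.73, adjusted p = 0.062, and r = 0.60, adjusted p = 0.133). Among the brightest probes Dpep1 passed with no other member, and its r with Mep1a and Pdzk1 lay near 0 (-0.16 and -0.14). With the probes of a gene averaged, Dpep1 and Mep1b gave r = 0.89 and passed (adjusted permutation p = 0.002), and the Pdzk1 probe ILMN_1235474 alone gave r = 0.73 with Dpep1.

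**Figure D4:**
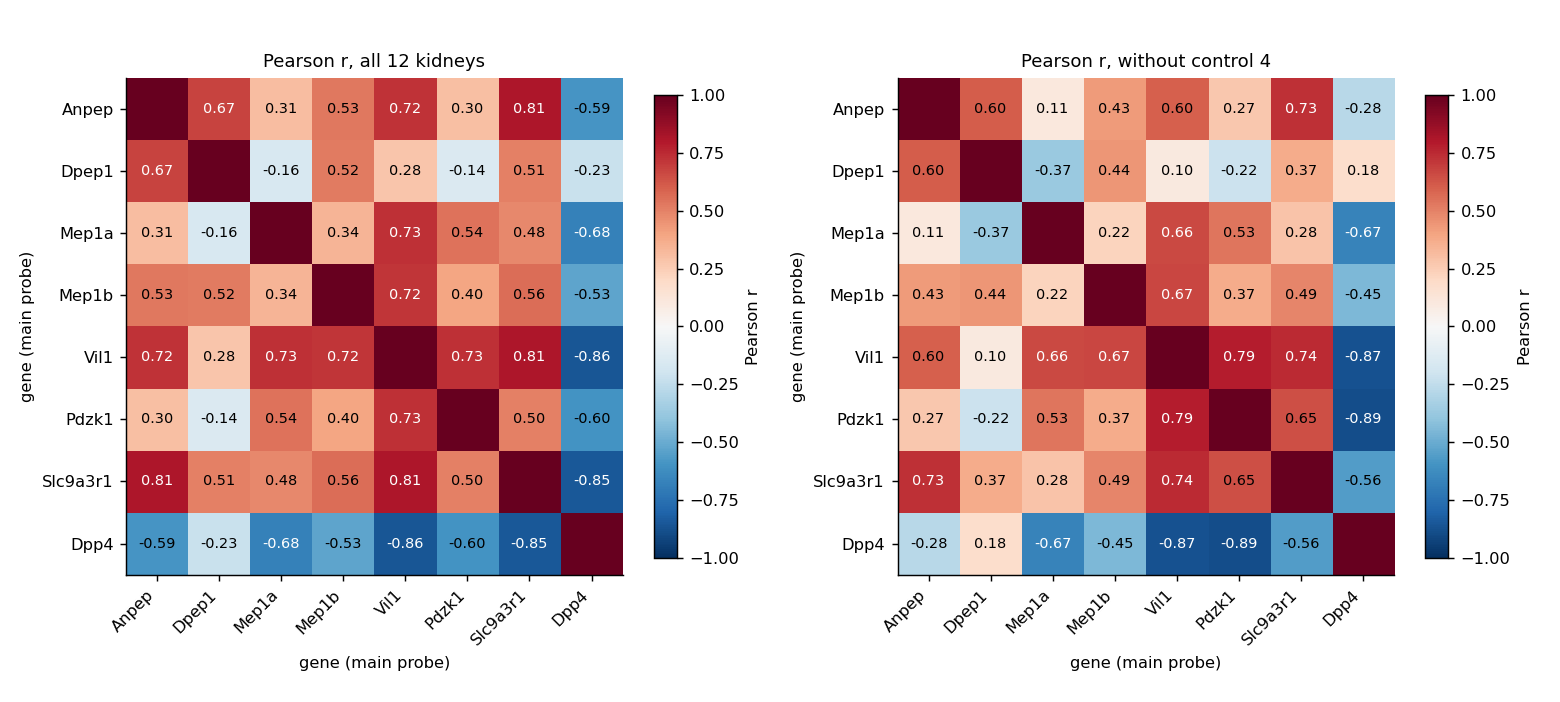
Pearson's r for each pair of the 8 genes (rows and columns, brightest probe of each), over all 12 kidneys on the left and without control 4 on the right; red is positive and blue negative. The row of Dpp4 is blue throughout over all 12 kidneys, and without control 4 its value with Pdzk1 goes from -0.60 to -0.89 and that with Slc9a3r1 from -0.85 to -0.56.

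The promoters of Vil1, Slc9a3r1 and Dpp4 are shown because the first pair rose and fell together while Dpp4 ran the other way. Each is the 250 bases before the gene's start in RefSeq, assembly GRCm38.p6, written 5′ to 3′ on the gene's own strand. Capitals mark a GC box (GGGCGG on the printed strand or CCGCCC for the other strand) or a TATA box (TATAAA, or TTTATA for the other strand).
Vil1: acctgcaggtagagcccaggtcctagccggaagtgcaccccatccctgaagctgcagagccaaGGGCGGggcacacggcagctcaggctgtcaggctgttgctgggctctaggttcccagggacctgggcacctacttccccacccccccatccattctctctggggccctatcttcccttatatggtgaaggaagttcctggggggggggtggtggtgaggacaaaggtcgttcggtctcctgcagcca
Slc9a3r1: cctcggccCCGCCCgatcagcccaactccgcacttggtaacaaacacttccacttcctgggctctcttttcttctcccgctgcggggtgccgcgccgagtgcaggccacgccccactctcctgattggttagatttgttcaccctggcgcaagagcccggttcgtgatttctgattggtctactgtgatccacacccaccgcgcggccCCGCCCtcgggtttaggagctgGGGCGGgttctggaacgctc
Dpp4: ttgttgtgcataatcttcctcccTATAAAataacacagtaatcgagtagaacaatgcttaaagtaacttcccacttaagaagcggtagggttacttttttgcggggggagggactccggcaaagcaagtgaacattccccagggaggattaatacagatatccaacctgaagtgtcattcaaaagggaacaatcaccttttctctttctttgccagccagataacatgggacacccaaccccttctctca
The Vil1 stretch lies at chr1:74409134-74409383 on the plus strand and is 62.8% G and C, with its GC box starting 187 bases before the start. The Slc9a3r1 stretch lies at chr11:115163091-115163340 on the plus strand, is also 62.8% G and C, and has GC boxes starting 242, 42 and 20 bases before the start. The Dpp4 stretch lies at chr2:62412232-62412481 on the minus strand and is 43.6% G and C. It holds no GC box, and its TATAAA starts 227 bases before the start. Letters were marked wherever they lay, and whether this distant TATAAA works as a TATA box was not tested. The same stretch of Mep1a, which correlated with Vil1 (r = 0.73) and against Dpp4 (r = -0.68), is 41.6% G and C and holds neither motif. Whether base content or these motifs have a part in the correlations was not tested. In windows of 250 bases before to 50 after a start, GGGCGG was found on either strand in 6 of 12 promoters of the 8 members in the table and in 35.7% of all 32851 promoters, and TATAAA in 2 of 12 and in 13.6%. These are not the 8 genes with probes: Mep1b is absent, and Ggt1, which was not measured, gave several of the windows and hits of both motifs.

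HNF4 factors are known regulators of proximal tubule genes, so their motif CAAAGTCCA was searched on both strands too. It was found in 1 of the 12 windows, against 0.475% of all promoters. That match was in Pdzk1, with its first base 15 bases after the start. The 30 bases printed around it lie at chr3:96830069-96830098 (GRCm38.p6, plus strand, RefSeq), and capitals mark the motif.
Pdzk1: aatctttgtcCAAAGTCCAgtgagttccaa
A match of letters is a description of the sequence and says nothing about binding, and no match says only that these letters are absent from this window. Of listed regulators, Hnf4a had a log2 difference of 0.19 (limma, adjusted p = 0.544) and Ppara of -0.41 (adjusted p = 0.458).

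Several members followed the axis on which the 12 arrays differed most, the first principal component, to which their own probes contribute. This component is drawn from all tested probes, so many other probes can follow it too. The share of all tested probes with an r as large was not computed, so the values below do not set the members apart. The r with this component was -0.87 for Dpep1 (adjusted permutation p = 0.002 over the 12 probes; rho = -0.88, adjusted p = 0.001) and -0.83 without control 4 and ethanol 2. It was -0.85 and -0.82 for the dimmer Mep1b probes (adjusted p = 0.002 and 0.003; rho = -0.88 and -0.83, adjusted p = 0.001 and 0.004), and -0.94 and -0.91 without that pair of kidneys. It was -0.86 for the Pdzk1 probe ILMN_1235474 (adjusted p = 0.002; rho = -0.92, adjusted p = 0.001), but -0.16 and -0.32 for the other 2 Pdzk1 probes (adjusted p = 0.665 and 0.378). Slc9a3r1 had an r of -0.80 (adjusted p = 0.005; rho = -0.63, adjusted p = 0.075) and Anpep of -0.71 (adjusted p = 0.020; rho = -0.61, adjusted p = 0.080), which went to -0.60 and -0.63 without that pair. Mep1a stood at -0.04 (adjusted p = 0.905). Probes of the same gene therefore differed in how far they followed this axis, and its part in the member differences was not tested.

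**Figure D5:**
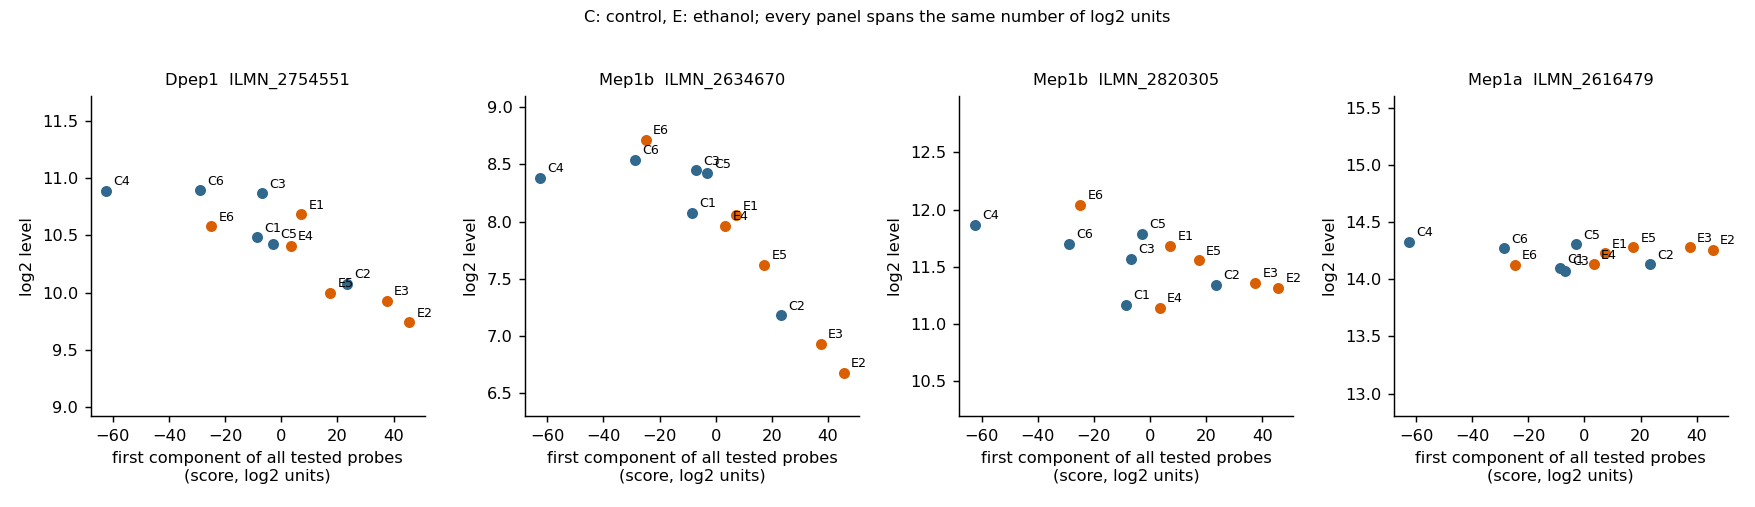
The log2 level (y axes, all spanning the same number of log2 units) of Dpep1, of a dimmer and the brightest Mep1b probe, and of Mep1a, against the first-component score of each kidney (x axes, log2 units; C, control; E, ethanol). Dpep1 (r = -0.87) and the dimmer Mep1b probe (r = -0.85) fall towards ethanol 2 and 3, whereas Mep1a is flat (r = -0.04).

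For each member the 3 genes with the highest r over the 12 kidneys were looked up among 12182 tested genes, as a description. The genes nearest to Dpep1 were the histone genes H2bc9 (r = 0.98) and H2bc7 (0.97) and P2rx4, which encodes an ATP-gated ion channel (0.97). Nearest to Mep1b were Serpina1d, an alpha-1 antitrypsin gene (0.94), the complement gene C8g (0.94) and Haao of kynurenine breakdown (0.93). Nearest to Slc9a3r1 was Oplah, which opens 5-oxoproline in glutathione turnover (0.96), followed by Dcakd (0.96) and Ergic1 (0.95), and Ergic1 (0.92) was also the nearest to Anpep, ahead of Dhdds (0.91) and Isoc2a (0.91). For Dpp4 they were the defensin gene Defb1 (0.94), Lsm8 (0.92) and Txndc15 (0.92), and for Vil1 they were Fbxo40, Ttbk1 and B3gntl1 (each 0.95). Mep1a was nearest to Ndufaf1 (0.91), Nipsnap1 (0.89) and Fen1 (0.89), and Pdzk1 to Vps53 (0.93), Hdlbp (0.88) and Proz (0.88). Of these names only Oplah is on a gene list used below, that of glutathione and peptide breakdown.

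Genes listed as other enzymes of the brush border lay on both sides of 0 as well. The list was drawn broadly, and where in the cell each product lies was not checked. Dpep2 and Ggt5 on it were dim, with mean log2 levels of 5.02 and 5.76 in controls. Of 18 listed, 13 were tested: 7 log2 differences lay above 0 and 6 below, with a median of 0.01, and 0 passed adjustment. The tissue-nonspecific alkaline phosphatase gene Alpl had the only unadjusted p under 0.05 (log2 difference -0.45; limma, adjusted p = 0.382), 1 of 13 against 4.95% of all tested genes on that side. Mme (neprilysin) stood at 0.22, Enpep (aminopeptidase A) at 0.19 and Npnt (nephronectin, a matrix protein and no enzyme) at 0.21, with adjusted p of 0.677, 0.664 and 0.616. Of the 3 tested Mme probes 1 had the opposite sign, as did 1 of the 2 tested Npnt probes.

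Among partners of the scaffolds and other microvillus genes, 20 of 22 were tested, 9 above and 11 below 0, with a median log2 difference of -0.04 and 0 past adjustment. No probe is listed under Ezr, the ezrin gene. Its relatives stood on opposite sides, Msn (moesin) at -0.68 ± 0.25 and Rdx (radixin) at 0.38 ± 0.15 (SE; limma, adjusted p = 0.379 and 0.381), and a second Msn probe had the opposite sign. Fscn1, which encodes the actin bundler fascin, was at -0.48 (adjusted p = 0.379), making 2 of 20 below 0 at an unadjusted p under 0.05, against 4.95% of all tested genes, and 1 of 20 above, against 4.72%.

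Of 12 transporters that the scaffolds bind, all 12 were tested, with 10 log2 differences above 0, 2 below, and a median of 0.03. Over all tested genes 45.4% lay below 0 and the median was 0.02. Slc9a3, the sodium-proton exchanger gene, gave the smallest p, at 12.15 ± 0.14 in controls and 12.48 ± 0.21 in ethanol kidneys (SD, n = 6 each; log2 difference 0.33 ± 0.12 SE; limma, adjusted p = 0.379). It was the only 1 of the 12 at an unadjusted p under 0.05, against 4.72% of all tested genes on that side. Slc34a1, the phosphate carrier gene, was at 15.75 ± 0.12 and 15.76 ± 0.03, a difference of 0.02.

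A last list joined genes of glutathione turnover, in which Ggt1 and Dpep1 take the outer steps, with carriers that take up amino acids and small peptides, and 9 of its 13 genes were tested. Of these, 3 lay above 0 and 6 below, against 45.4% of all tested genes below 0. The median log2 difference was -0.02, and 0 passed the test even without adjustment. The synthesis genes Gclc and Gss stood at -0.34 and -0.37 (adjusted p = 0.523 and 0.476), Gclm at 0.16 (adjusted p = 0.491), and Ggct, which splits gamma-glutamyl peptides inside the cell, at -0.29 (adjusted p = 0.472). Of the 4 tested Gss probes 1 had the opposite sign. The median over the whole list therefore does not describe the glutathione genes alone.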

How the data were processed

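Whole-kidney total RNA carrying a biotin label was measured on 1-colour Illumina arrays, 1 for each of the 12 samples, per the labels. The deposited unit is the linear intensity of a probe, and each array had 8.16% to 33.3% negative values. They came from GenomeStudio per the submitters' processing notes, and its version, background handling and scaling were not stated in any source used here. A second table, whose 24 columns in all match no sample label, was not used.

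For each array the mode of the intensities (kernel bandwidth 2, below the 0.6 quantile) and the spread below it stood for the background. A normal-exponential correction with an offset of 16, quantile normalization and log2 followed, in R 4.3.3 with limma 3.58.1. A probe was tested where it was above background (normal probability under 0.05) on at least 6 of 12 arrays, which left 23983 probes and 12618 genes. An error in the estimated background would move dim probes most. The number of arrays limits the precision.

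Symbols came from the platform annotation, in which 34885 probes had 1 symbol, 18 had several and 10378 had none. Ethanol minus control was fitted with limma (lmFit, eBayes) over all tested probes, with Benjamini-Hochberg adjustment and calls were made at an adjusted p below 0.05. The fit was tested on simulated data. A gene is represented by its brightest tested probe unless a probe is named. Correlations used 100000 resamples in numpy 2.4.6.

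The members and gene lists were chosen with earlier results of these data known. The text names every member, the 3 genes nearest to each in r, at most 4 genes per list, those of lowest p, and Slc34a1, named for its role after its values were seen. Some planned results are not reported here. The GC box and TATA box motifs were added after the sequences had been seen. Promoters are from RefSeq, and 8 of the 9 members matched, all but Mep1b. Alternatives covered the background correction, offset, scaling, filter, array weights, variance prior, replicate block, averaged probes, and each kidney left out.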

Additional observations from a re-analysis of the deposited data

Results flagged for a closer look

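In 6 of 52 groups of 6 kidneys examined, the highest or lowest kidney stood far from the rest of its group (Dixon's criterion, 95%), and chance alone marks about 1 group in 20. Among the members this held for the Mep1b probe ILMN_2634670 in controls, where control 2 read 7.18 on the log2 scale. The thick ascending limb markers averaged 12.8 in control 4, the lowest of the controls, and 13.0 in ethanol 6, the lowest of its group. The T lymphocyte markers averaged 7.91 in control 6 and 7.08 in ethanol 1, each the highest of its group. The liver markers averaged 12.2 in ethanol 6, the highest of its group.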

How the results depend on the processing

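No member probe passed an adjusted p of 0.05 under any alternative run, with 0.239 as the smallest adjusted p. The number of calls among all tested probes was 0, and 1 with the deposited intensities unscaled. The member differences that turned sign lay near 0. Mep1a went from 0.02 to -0.026 with median scaling and -0.030 with the deposited values, and Pdzk1 ILMN_2924754 from 0.01 to -0.037 and -0.042. With array weights Dpp4 went to -0.067 and Vil1 to 0.0059. The average of the tested Pdzk1 probes was at -0.0058, whereas the brightest of them alone was at 0.10. When each kidney was left out in turn, the difference ran from -0.0097 to 0.041 for Mep1a, -0.16 to 0.020 for Mep1b ILMN_2820305, -0.12 to 0.072 for Dpp4, -0.099 to 0.048 for Vil1 and -0.051 to 0.060 for Pdzk1 ILMN_2924754. The probes at an unadjusted p under 0.05, 2914 over all, ran from 1833 (without ethanol 2) to 3802 (without control 2), and the member probes among them from 0 to 2.

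The co-variation count of 10 pairs was 3 with the deposited values, 12 with group means removed, 12 with probes averaged and 3 to 10 with each kidney left out. The p-values with group means removed have the limit given above. Over the settings that kept all kidneys, 6 r values newly passed and 9 no longer did. The r of Dpep1 with Pdzk1 turned to 0.049 with group means removed, 0.21 with the deposited values and 0.27 with probes averaged, and ran from -0.29 to 0.17 with each kidney left out. Dpep1 with Mep1a turned to 0.18 with the deposited values and ran from -0.37 to 0.0086, Dpep1 with Dpp4 ran from -0.40 to 0.18, and Mep1a with Mep1b turned to -0.096 with probes averaged. The cause of these shifts was not tested.

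The r between kidneys sharing a replicate number, with group means removed, ran from 0.001 to 0.46. The labels do not say whether the numbers pair the samples, and these r values cannot decide it. With the replicate number as a block, 2 member probes had an unadjusted p under 0.05, Dpep1 (0.0237) and Mep1b ILMN_2634670 (0.0283), with adjusted p of 0.258 and 0.274. The block gave 3554 probes at that level over all, against 2914 without it. It gave 0 calls, with a smallest adjusted p (limma) of 0.070, against 0.301 without it.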
